A study of Oryctolagus cuniculus with 4 samples.

Results

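The cells described here are fibroblasts of the rabbit bladder mucosa that held at least 3 of 6 genes, COCH, COL11A1, KIF26B, FNDC1, SCUBE2 and ADAMTS19. They were selected on these measured values, from cells with at least 500 UMIs (unique molecular identifiers, each standing for 1 captured transcript), at least 200 genes and at most 15% of UMIs in 13 mitochondrial genes. A cell had to carry at least 0.5% of its UMIs in DCN and LUM, the decorin and lumican genes that mark fibroblasts, and no UMI of PTPRC or PECAM1, which mark leukocytes and endothelium. Of 21945 cells kept among 25659 barcodes, 7580 passed this DCN/LUM gate and 485 of these held at least 3 of the 6 genes. They are called the chosen cells below, and the remaining 7095 the other DCN/LUM cells. The libraries came from bladder mucosa of 4 New Zealand rabbits, 1 library each: Injury_1 and Injury_2 at day 10 after a focal resection of the mucosa, when new urothelium had just closed over the wound, and Normal_1 and Normal_2 from uninjured mucosa.

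Fibroblasts build the collagen-rich bed beneath the urothelium and rebuild it after a wound. Fibroblasts of healing and fibrotic tissue are known to change the set of matrix proteins they make, to secrete enzymes that modify or cut collagen, and in part to take up smooth muscle actin. COL11A1 encodes a chain of type XI collagen, which sits inside collagen fibrils and is known from cartilage and from remodelling stroma.

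The chosen cells were almost all from the injured mucosa. This holds inside the DCN/LUM gate. Below its DCN/LUM limit, at least 3 of the 6 genes were held by 3 and 2 cells of Injury_1 and Injury_2 and by 4 and 43 cells of Normal_1 and Normal_2. Injury_1 held 236 among 2011 DCN/LUM cells, or 11.7% (95% Wilson interval 10.4 to 13.2%). Injury_2 held 241 among 2376, or 10.1% (8.99 to 11.4%). Normal_2 held 8 among 2249, or 0.356% (0.180 to 0.700%), and Normal_1 held 0 of 944, which allows a share of up to 0.318% (3 counts of the total) and has a Wilson upper limit of 0.405%. The injured rabbits averaged 10.9 ± 1.13% and the normal rabbits 0.178 ± 0.252% (SD, n = 2 each), and the groups did not overlap. These shares are a description and were not tested, since the genes had been picked from these same samples. The intervals cover counting error only.

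Detection of several genes in 1 cell depends on depth. The median chosen cell had 9823 UMIs in Injury_1 and 10707 in Injury_2, against 7705 and 8300 in the other DCN/LUM cells of these rabbits, and the DCN/LUM cells outside the chosen set had a median of 4972.5 in Normal_1 and 6949 in Normal_2. With every cell thinned to 3000 UMIs, the share with at least 3 of the 6 genes was 2.89% and 2.27% in the injured rabbits and 0% and 0.0343% in Normal_1 and Normal_2, with 51, 45, 49 and 61 cells below that depth dropped. At 1000 UMIs it was 0.447%, 0.421%, 0% and 0%. At equal depth the injured rabbits still lay above the normal ones, while the size of the share depended on the depth. Across the libraries, 5823 to 6884 barcodes held 28745017 to 47881609 UMIs, with Normal_1 the shallowest, and 8 to 13 cell barcodes were shared by each pair of libraries.

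Most chosen cells sat at the edge of the rule. Among the 477 of the injured rabbits, 312 (65.4%) held exactly 3 of the 6 genes and 14 held all 6. In Injury_1, 362 DCN/LUM cells held 2 of the genes, just outside the rule, and 158 held 3, just inside it. In Injury_2 the corresponding numbers were 474 and 154. Among genes that the rule did not use, ASPN was 78.1 CPM (UMIs summed over the cells and scaled to the same total in every sum) in cells with 3 genes and 76.1 CPM in cells with 2 in Injury_1, and 232.7 and 162.2 CPM in Injury_2. FAP was 31.9 against 18.4 CPM and 76.0 against 37.5 CPM. ASPN had been listed with the 6 genes as a marker of these cells, with these same data known.

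**Figure D1:**
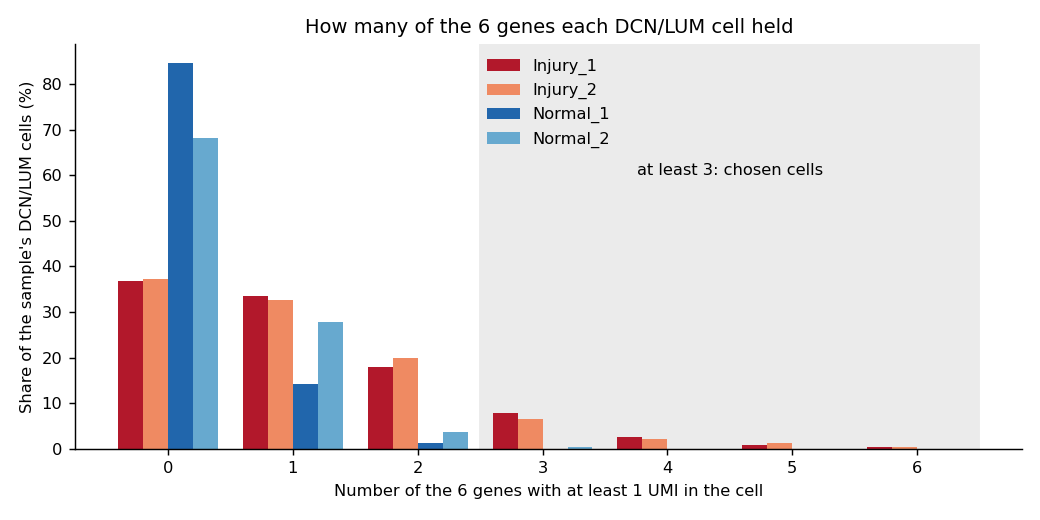
Share of each sample's DCN/LUM cells (%) by the number of the 6 genes with at least 1 UMI, with 1 bar per sample and the range of the rule shaded. Both injured samples extend beyond 3 genes, whereas 8 cells of Normal_2 reach 3 and no cell of Normal_1 does.

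The 6 genes that the rule used contributed unequally, and their levels are given with no test. COCH, which encodes the secreted matrix protein cochlin, was detected in 85.2% of the chosen cells of Injury_1 and 74.7% of those of Injury_2. ADAMTS19, a secreted metalloprotease, was detected in 79.7% and 80.9%, and SCUBE2, a secreted protein known to help release hedgehog ligands, in 80.5% and 69.7%. KIF26B, of the kinesin family, was found in 43.2% and 41.1% and FNDC1, a protein with fibronectin-like domains, in 40.3% and 63.5%. COL11A1 was found in only 41 cells (17.4%) and 58 cells (24.1%). A name built on COL11A1 would thus not describe most of the chosen cells.

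The most frequent combination in Injury_1 was COCH, SCUBE2 and ADAMTS19 with no other gene of the 6, in 69 cells (29.2%), among 32 combinations. In Injury_2 it was COCH, FNDC1 and ADAMTS19, in 31 cells (12.9%), among 35 combinations. Over all DCN/LUM cells, COL11A1 and KIF26B were found together 4.03 times as often in Injury_1 and 2.87 times as often in Injury_2 as their shares in cells of like depth (10 bins of UMI totals) would give. For COCH and FNDC1 this ratio was 1.05 and 1.27.

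Outside the chosen cells, the 6 genes differed in where they were found. COCH was 861 CPM in the chosen cells of Injury_1 and 520 CPM in those of Injury_2. In the other DCN/LUM cells it was 198 and 54.6 CPM in the injured rabbits and 3.33 and 2.00 CPM in Normal_1 and Normal_2, so it was also high in injured cells that the rule had left out. ADAMTS19 showed the same layout, with 140 and 125 CPM in the chosen cells, 34.8 and 34.0 CPM in the other injured cells and 1.25 and 2.25 CPM in the normal ones. COL11A1 did not: it was 77.1 and 75.7 CPM in the chosen cells, 2.65 and 3.30 CPM in the other injured cells and 2.29 and 1.93 CPM in the normal ones. The rule itself lowers such values, since it takes cells that hold these genes out of the others. Over all DCN/LUM cells, chosen or not, COL11A1 was 13.5 and 12.6 CPM in Injury_1 and Injury_2 and 2.29 and 1.93 CPM in Normal_1 and Normal_2. KIF26B was 85.9 and 77.2 CPM in the chosen cells against 4.87, 6.61, 1.46 and 3.56 CPM in the others of Injury_1, Injury_2, Normal_1 and Normal_2. For SCUBE2 the chosen cells had 148 and 138 CPM, and the others 36.5, 35.8, 15.8 and 23.7 CPM in that order. FNDC1 was 93.0 and 185 CPM in the chosen cells and 11.1, 36.3, 12.1 and 27.4 CPM in the others, so that Normal_2 lay above Injury_1.

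**Figure D2:**
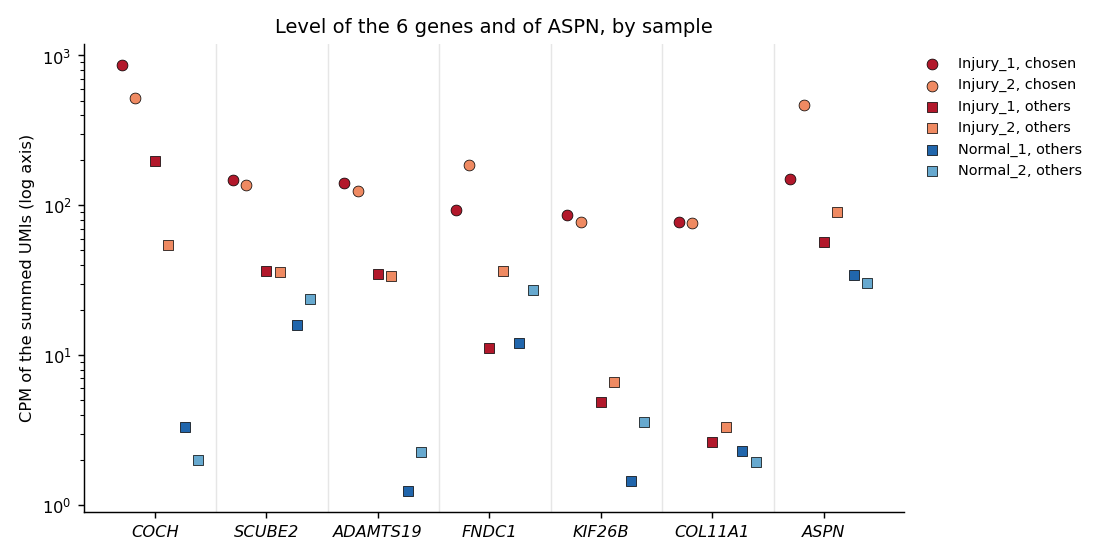
CPM (log axis) of the 6 genes and of ASPN in the chosen cells (circles) and in the other DCN/LUM cells (squares), 1 point per sample. COCH and ADAMTS19 in the other cells are separated by condition, from 54.6 CPM upwards and from 34.0 CPM upwards in the injured samples, while COL11A1 in the other cells lies between 1.93 and 3.30 CPM in all 4 samples. The other cells lack those that the rule chose by these 6 genes.

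Free RNA in the droplets can place a UMI in a cell that does not express the gene, so detection was also read in the cells that failed the DCN/LUM gate, whose median depth was 4715 to 6447 UMIs. At 1000 UMIs per cell, COCH was detected in 13.7% and 6.08% of the DCN/LUM cells of Injury_1 and Injury_2 and in 1.09% and 0.417% of the cells outside the gate. Without thinning, these shares were 35.0% and 22.1% inside and 3.03% and 1.71% outside. In Normal_1 and Normal_2 the thinned share was 0.342% and 0.155% inside and 0.493% and 0.288% outside, which is at the background. COL11A1 was detected at 1000 UMIs in 0.748% and 0.830% of the injured DCN/LUM cells against 0.158% and 0.145% outside the gate. In Normal_1 it was 0.176% inside and 0.101% outside, and in Normal_2 0.229% inside and 0.336% outside. Of the fibroblast genes used for the gate, DCN was 24422 and 21017 CPM in the chosen cells against 31203 and 27976 CPM in the others, and LUM 17513 and 15737 CPM against 14068 and 12005 CPM.

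The chosen cells were next compared with the other DCN/LUM cells of the same injured rabbit, over all genes outside the rule. UMIs were summed over the cells of each kind in each rabbit, and edgeR's quasi-likelihood test with the rabbit as a block gave the fold changes and the adjusted p-values. The standard errors (SE) were derived from it, as the absolute log2 fold change divided by the square root of the F statistic. Of 7756 genes tested, 296 were called higher (3.82%) and 275 lower (3.55%) in the chosen cells, and 1448 had an unadjusted p under 0.05. Rabbits numbered 2, and the fit had 1 residual degree of freedom, so these p-values rest on a spread shared across genes. The 6 genes were picked from these cells, and genes that vary with them had to differ, so that the calls describe the group and are not independent evidence for it. The number of calls was 173 with DESeq2 and 147 when chosen and other cells were taken at like depth. Like depth kept only cells between the lower and upper quartile of the UMI totals of the chosen cells of each rabbit. This left 118 of 236 chosen cells and 555 others in Injury_1, and 121 of 241 and 695 in Injury_2. Whether calls were lost there through depth or through the smaller number of cells was not tested. Of the 81 called genes that are named by rule, 32 lost the call with DESeq2 and 36 at like depth, where 1 more turned, and 81 without the rabbit as a block.

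Of 11 contractile genes tested, 6 were called higher and 1 lower, with a median log2 fold change of 0.70 against -0.01 over all genes tested. ACTG2, the gamma actin of visceral smooth muscle, was 526 and 936 CPM in the chosen cells of Injury_1 and Injury_2 against 212 and 237 CPM in the others, a log2 fold change of 1.63 (SE 0.10, adjusted p = 1.8e-10). ACTA2, alpha smooth muscle actin, was 501 and 884 CPM against 257 and 292 CPM (log2 fold change 1.26, SE 0.10, adjusted p = 7.22e-09). The tropomyosins Tpm2 (log2 fold change 0.98) and TPM1 (0.80), which lie along actin filaments, also rose. MYH11, the myosin heavy chain of mature smooth muscle, fell by 0.63 on the log2 scale, from 118 and 111 CPM in the others to 76.7 and 73.8 CPM in the chosen cells, but it was 0.03 higher and not called with a mitochondrial limit of 10%.

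The chosen cells that held COL11A1 stood far above the others in these genes. In Injury_1, ACTA2 was 1838 CPM in the 41 chosen cells with COL11A1 and 208 CPM in the 195 without it, against 257 CPM in the other DCN/LUM cells. In Injury_2 it was 2576 CPM in 58 cells and 338 CPM in 183 cells, against 292 CPM. ACTG2 was 2004 against 203 CPM and 3023 against 263 CPM. It was detected in 70.7% and 75.9% of the cells with COL11A1, 27.2% and 23.0% of those without it and 19.3% and 26.1% of the others. The cell with the most ACTG2 held 15.4% and 16.8% of the UMIs of the COL11A1 cells. ACTA2 was detected in 41.5% and 62.1% of the COL11A1 cells, and 1 cell held 21.1% and 19.7% of its UMIs. With the COL11A1 cells left out, 0 of the 11 contractile genes were called higher and 2 lower by the same edgeR test, with 2 and 3 at an unadjusted p under 0.05, and the log2 fold change of ACTA2 became -0.02 and that of ACTG2 0.06.

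The same split ran through other genes of the chosen cells, here given as values, since the cells were divided by a gene of the rule. All but 6 of the 24 cells with 5 or 6 of the genes in Injury_1 held COL11A1, as did all but 12 of the 36 in Injury_2. The rest of the 41 and 58 chosen cells with COL11A1 in Injury_1 and Injury_2 held fewer than 5 of the genes. A difference by COL11A1 thus overlapped in part with a difference by the number of the 6 genes held, and the values below do not separate them. ASPN, a small leucine-rich proteoglycan that binds collagen, was 387 and 1121 CPM in chosen cells with COL11A1 and 99.1 and 255 CPM in those without it. COL8A1, a short-chain collagen of vessel walls and scars, was 168 and 405 CPM against 32.7 and 93.7 CPM. For the growth factor gene PTN (pleiotrophin) the values were 376 and 445 CPM against 89.9 and 150 CPM. COL12A1, whose product links fibrils, was 259 and 485 CPM against 130 and 150 CPM, and its log2 fold change over all chosen cells, 0.31, became -0.09 without the COL11A1 cells. SPP1 (osteopontin) was 471 and 182 CPM with COL11A1 and 177 and 47.3 CPM without it, although it was lower in the chosen cells as a whole, and 1 cell held 97 of the 202 SPP1 UMIs of the COL11A1 cells in Injury_1.

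Other genes were lower where COL11A1 was present. SFRP2, a secreted WNT modulator, was 677 and 944 CPM in the chosen cells with COL11A1 and 2240 and 2234 CPM in those without it. CD34, a surface protein of resting stromal cells, was 65.3 and 64.3 CPM against 138 and 269 CPM. EFEMP1, of elastic fibres, was 30.3 and 19.9 CPM against 91.9 and 185 CPM. In every one of these genes both rabbits differed in the same direction. MYH11 went the other way from its fall over all chosen cells, with 173 and 148 CPM in the cells with COL11A1 against 55.7 and 49.8 CPM in those without it.

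**Figure D3:**
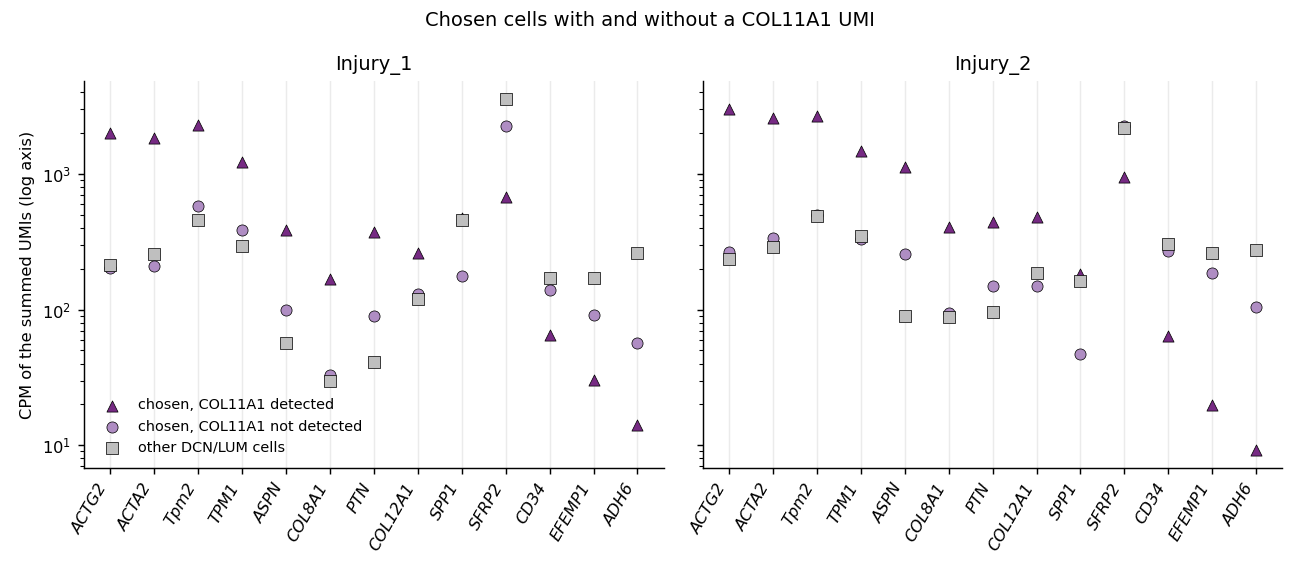
CPM (log axis) of 13 genes in chosen cells with a COL11A1 UMI (triangles), chosen cells without one (circles) and the other DCN/LUM cells (squares), for each injured rabbit. For ACTG2, ACTA2, Tpm2 and TPM1 the circles lie near the squares and the triangles lie far above both, as with 2004, 203 and 212 CPM of ACTG2 in Injury_1.

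The cells with COL11A1 also lay closer to each other in overall expression. Cells of each sample were placed by 30 principal components of 2000 variable genes from which the genes of the rule had been removed. Of the 20 nearest DCN/LUM neighbours of a chosen cell with COL11A1, 22.2% in Injury_1 and 28.0% in Injury_2 were cells of the same kind, which made up 2.04% and 2.44% of the DCN/LUM cells. For chosen cells as a whole, 32.2% and 27.9% of the neighbours were chosen cells, against 11.7% and 10.1% of all DCN/LUM cells. This share was 52.8% and 44.4% for chosen cells with COL11A1, 27.8% and 22.6% for those without it and 14.3% and 11.7% for other cells with 2 of the 6 genes. Except for the COL11A1 cells of Injury_1, most neighbours of chosen cells were thus cells that the rule had not chosen. Depth, which was higher in the chosen cells, was not matched here. These shares are a description of cells within a sample and carry no test.

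Among collagens, the chains of types I and III did not pass the test. COL1A1, the main chain of type I collagen, was 13100 and 16473 CPM in the chosen cells and 12410 and 14436 CPM in the others (log2 fold change 0.10, adjusted p = 0.167). COL3A1, of type III collagen, was 31945 and 43686 CPM against 30906 and 41483 CPM (log2 fold change 0.03, adjusted p = 0.733). Of 5 fibrillar collagens tested besides COL11A1, 2 were called higher: COL5A2, which regulates fibril diameter, at 467 and 516 CPM against 362 and 378 CPM (log2 fold change 0.38), and COL24A1, a scarce chain at 2.93 and 5.59 CPM against 1.29 and 1.65 CPM, which is named after its values had been seen. COL5A1 was not analysed here.

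Of 12 other collagens tested, 5 were called higher and 1 lower, against 4 and 0 with DESeq2 and 1 and 0 at like depth. COL4A1 and COL4A2, the chains of the common basement membrane collagen, were higher with log2 fold changes of 0.58 and 0.55. COL4A2 was 515 and 596 CPM against 346 and 397 CPM. COL12A1, at 153 and 232 CPM against 119 and 186 CPM (log2 fold change 0.31, adjusted p = 0.00881), was the fourth, and COL25A1, a membrane-bound collagen at 12.2 and 2.98 CPM against 0.930 and 1.05 CPM, is named after its values had been seen. COL8A1 was 57.0 and 170 CPM against 29.5 and 88.6 CPM (log2 fold change 0.92, SE 0.10, adjusted p = 6.47e-07), a value of 0.12 without the COL11A1 cells. COL15A1, of vessel and muscle basement membranes, was called lower, at 120 and 117 CPM against 149 and 144 CPM, a call lost in 9 of 15 alternatives.

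Of 22 genes that modify, fold or crosslink collagen, 11 were called higher and 1 lower, with a median log2 fold change of 0.28. P4HA3, a prolyl hydroxylase subunit that stabilises the triple helix, was 33.9 and 54.1 CPM in the chosen cells against 12.02 and 22.5 CPM (log2 fold change 1.33, SE 0.14, adjusted p = 6.09e-07). PLOD2, which hydroxylates lysines used for crosslinks, was 195 and 209 CPM against 123 and 128 CPM (log2 fold change 0.66). P3H3, at 0.57, and FKBP14, at 0.52, which act on prolines of the same chains, were also higher. The call of FKBP14 was lost in 8 of 15 alternatives. LOX, which starts the crosslinks, was 202 and 163 CPM against 170 and 141 CPM and was not called (adjusted p = 0.116). Without the COL11A1 cells 9 of these enzymes were called higher, at like depth 3 and with DESeq2 3.

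Small leucine-rich proteoglycans other than DCN and LUM were divided, with 3 of 9 called higher and 2 lower, against 1 and 0 with DESeq2 and at like depth. ASPN had a log2 fold change of 1.93 (SE 0.14, adjusted p = 1.58e-09), at 151 and 467 CPM in the chosen cells against 56.9 and 89.7 CPM. It was detected in 38.1% and 53.5% of the chosen cells and in 20.5% and 27.4% of the others. Since ASPN had been listed beforehand as a marker of these cells, its call is not independent evidence. OMD (osteomodulin) was higher with a log2 fold change of 0.67, a call lost in 8 of 15 alternatives, and PODN (podocan) fell by 0.57. EPYC (epiphycan) was called higher, at 63.4 against 34.0 CPM in Injury_2, but it was 0.838 against 0.930 CPM in Injury_1, and 13 chosen cells of Injury_2 held 170 of its UMIs.

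Of 21 matricellular and wound matrix genes, 4 were called higher and 3 lower, against 2 and 1 with DESeq2. VCAN, the large hyaluronan-binding proteoglycan of loose provisional matrix, was 472 and 434 CPM against 290 and 271 CPM (log2 fold change 0.66, SE 0.06, adjusted p = 2.15e-07). TNFAIP6, which remodels hyaluronan, was 1563 and 1121 CPM against 1128 and 674 CPM (log2 fold change 0.57). CCN3, a matricellular signalling protein, was 82.6 against 25.8 CPM in Injury_1 and 119 against 93.2 CPM in Injury_2. FN1 (fibronectin) did not pass the test, at 3048 and 2918 CPM against 2937 and 3104 CPM. SPP1 fell by 1.04 on the log2 scale, from 458 and 162 CPM to 230 and 80.2 CPM. POSTN and TNC were not analysed here.

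In the elastic fibre list, 2 of 12 genes were called higher and 3 lower. FBN2, a fibrillin of developing tissue, was 30.2 and 60.05 CPM against 11.1 and 26.0 CPM (log2 fold change 1.27). EFEMP1 fell by 0.98, MFAP5 by 0.61 and EMILIN2 by 0.48 on the log2 scale. MFAP5, which binds microfibrils, was 149 and 310 CPM in the chosen cells and 246 and 427 CPM in the others. Among 23 metalloproteases, other matrix proteases and inhibitors, 5 were called higher and 3 lower. FAP, a surface protease of activated stroma, was 38.1 and 92.9 CPM against 17.1 and 29.1 CPM (log2 fold change 1.44, SE 0.14, adjusted p = 2.16e-07).

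The protease inhibitor TIMP1 was 4732 and 2356 CPM in the chosen cells and 2744 and 1814 CPM in the others (log2 fold change 0.55, adjusted p = 2.54e-06). MMP2, a gelatinase, was 1523 and 1666 CPM against 1136 and 1306 CPM (log2 fold change 0.36). ADAMTS5, which cleaves aggregating proteoglycans such as versican, fell by 0.62, from 128 and 183 CPM to 84.7 and 121 CPM. MMP10 was called higher by 0.58, but 1 cell held 54 of its 150 UMIs among the chosen cells of Injury_1 and 1 cell 55 of 136 in Injury_2, and its log2 fold change was -0.18 without the COL11A1 cells. Of 16 integrins and other matrix receptors tested, 7 were called higher and 0 lower. CD44, the hyaluronan receptor, was 127 and 74.2 CPM against 68.5 and 34.6 CPM (log2 fold change 0.96). ITGA1, a collagen-binding integrin chain, was higher by 0.89, the mesenchymal cadherin CDH11 by 0.54 and ITGAV by 0.39. With DESeq2 2 of these receptors were called higher and 0 lower, and at an unadjusted p under 0.05 edgeR had 8 higher and 2 lower.

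**Figure D4:**
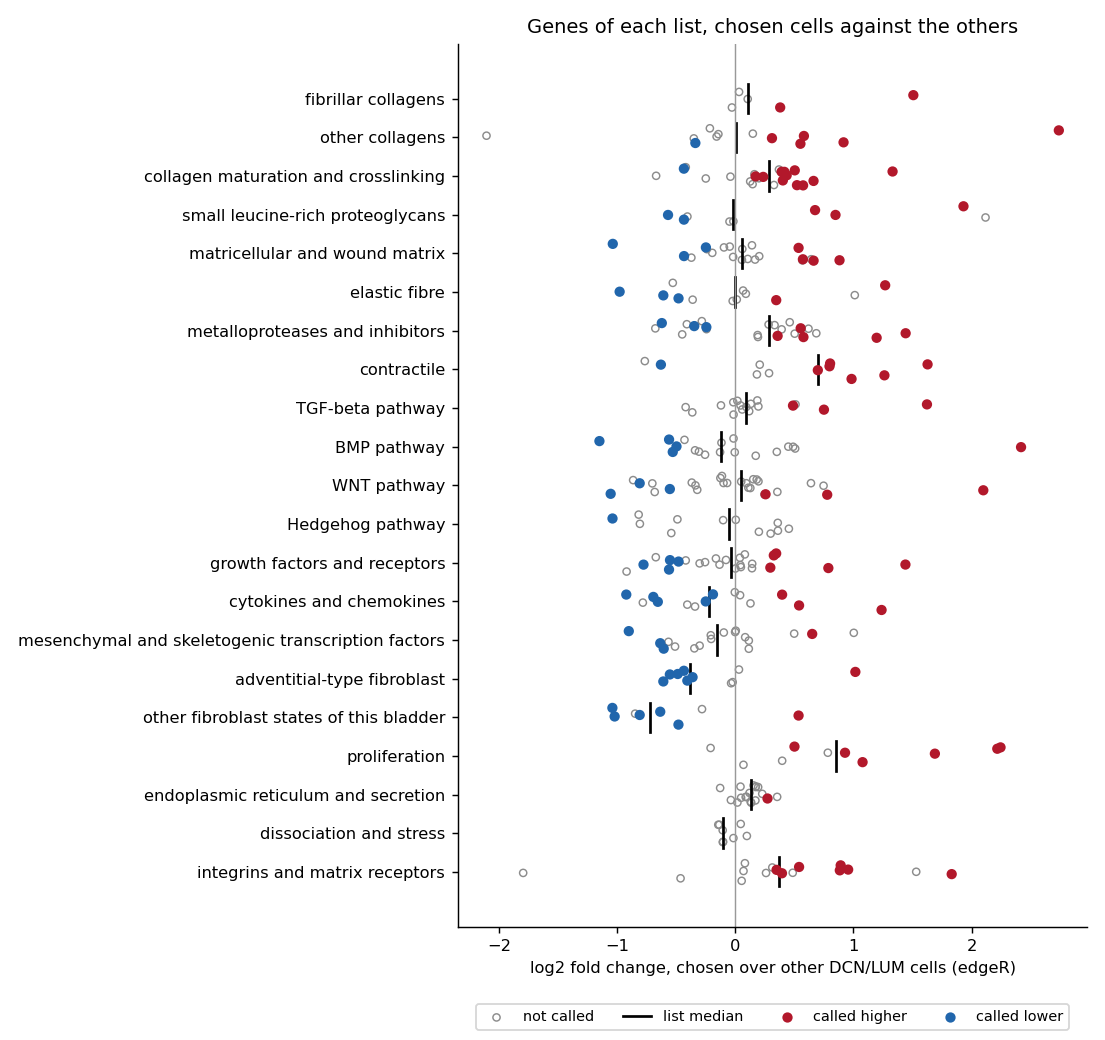
log2 fold change of the genes of each list between the chosen and the other DCN/LUM cells of the injured rabbits (edgeR), with called genes filled and the median of each list as a bar. Contractile genes have a median of 0.70, and the genes of the other fibroblast states of this bladder a median of -0.72.

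Signalling genes moved in both directions. Of 17 genes of the TGF-beta pathway, edgeR called 3 higher and 0 lower, with 4 and 2 at an unadjusted p under 0.05, and DESeq2 called 1 higher and 0 lower. INHBA, the subunit of activin A, was 169 and 112 CPM against 109 and 58.0 CPM (log2 fold change 0.75). TGFB3 was 58.3 and 52.6 CPM against 49.2 and 30.1 CPM (log2 fold change 0.49), a call lost in 8 of 15 alternatives. NOX4, an oxidase named after its values had been seen, was 5.03 and 4.85 CPM against 2.72 and 0.716 CPM. Of 18 BMP pathway genes, 1 was called higher and 4 lower, with a median of -0.12. The BMP target ID1 fell by 0.50 on the log2 scale, from 1127 and 1602 CPM to 775 and 1214 CPM. BMP3 fell by 0.53 and the BMP antagonist GREM1 by 0.56, calls that were lost in 7 and 11 of 15 alternatives. DESeq2 called 1 gene of this list higher and 1 lower. ID3, at -1.15, and BMPER, the gene called higher at 2.42, are named after their values had been seen and were below 12 CPM in the chosen cells of both rabbits.

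Of 27 WNT pathway genes, 3 were called higher and 3 lower, against 0 and 1 with DESeq2 and 0 and 2 at like depth. WNT2, a WNT ligand, was 192 and 207 CPM in the chosen cells against 144 and 184 CPM (log2 fold change 0.26), a call lost in 9 of 15 alternatives. DKK3, a relative of the DKK inhibitors, was 15.9 and 24.6 CPM against 8.66 and 14.6 CPM (log2 fold change 0.78). DKK1, a secreted WNT inhibitor, fell by 1.06, from 327 and 188 CPM to 142 and 106 CPM. SFRP2 fell by 0.55, although in Injury_2 it was 1920 CPM against 2174 CPM, a smaller gap than the 1960 against 3584 CPM of Injury_1. WNT5A (6.29 and 13.1 CPM against 4.51 and 12.2 CPM) and its receptor gene ROR2 (11.7 and 8.58 CPM against 5.37 and 7.27 CPM) were not called. RSPO2, called higher, and WIF1, called lower, are named after their values had been seen, and both were below 20 CPM.

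Of 12 hedgehog pathway genes, edgeR called 0 higher and 1 lower, with 1 and 2 at an unadjusted p under 0.05, and DESeq2 called 0 in either direction. HHIP, which traps hedgehog ligands, fell by 1.04, from 72.8 and 56.6 CPM to 17.6 and 45.5 CPM, and its log2 fold change was 0.02 when cells with 2 of the 6 genes were counted in as well. The receptor gene PTCH1 was 3.77 and 5.97 CPM against 6.58 and 7.43 CPM and was not called. Of 24 growth factor and receptor genes, 5 were called higher and 4 lower, against 1 and 1 with DESeq2. PTN was 141 and 222 CPM against 41.1 and 95.3 CPM (log2 fold change 1.44, SE 0.10, adjusted p = 1.5e-09). EREG (epiregulin), an EGF receptor ligand, was 539 against 210 CPM in Injury_1 and 142 against 128 CPM in Injury_2. HGF, which acts on epithelia, fell by 0.56 and the FGF receptor gene FGFR4 by 0.78, with the call of FGFR4 lost in 8 of 15 alternatives. PDGFRB was 24.3 and 29.1 CPM against 24.5 and 26.4 CPM.

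Genes of other fibroblast kinds were lower in part. Of 10 adventitial-type genes, 6 were called lower and 1 higher, with a median log2 fold change of -0.38. CD34 fell by 0.49, from 171 and 303 CPM to 125 and 219 CPM, and MFAP5 and SFRP2 fell as given above. GPC3, a glypican, was the member called higher, with 14.2 and 32.8 CPM against 9.87 and 12.8 CPM. Without the COL11A1 cells, 2 of these genes were called lower, and with cells holding 2 of the 6 genes counted in, 0 were, while 4 were lower at like depth.

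Of 8 genes that mark other fibroblast states of this bladder, a list drawn from these samples, 5 were called lower and 1 higher, with a median of -0.72. At like depth 1 was lower and 1 higher, with DESeq2 2 were lower, and with cells holding 2 of the 6 genes counted in 1 was lower and 1 higher, at a median of -0.04. APOD, a lipid-binding apolipoprotein, fell by 1.02 on the log2 scale, from 3260 and 1878 CPM to 1960 and 785 CPM, and 1 cell held 1841 of the 4676 APOD UMIs in the chosen cells of Injury_1. TCF21, a transcription factor of mesenchymal progenitors, fell by 0.64, from 720 and 667 CPM to 486 and 427 CPM. EDIL3, a matrix protein bound by integrins, was the one called higher, at 132 against 62.2 CPM in Injury_1 and 94.0 against 90.8 CPM in Injury_2. Of 18 mesenchymal transcription factors, 1 was called higher and 3 lower. PRRX1 was the one that rose, at 40.6 and 41.4 CPM against 28.7 and 23.0 CPM, whereas OSR1 fell by 0.61 and SOX5 by 0.90. SOX5 was at 0.02 with cells holding 2 of the 6 genes counted in, and DESeq2 called 0 of these factors higher and 1 lower. RUNX2 (3.77 and 1.86 CPM against 1.29 and 1.38 CPM) was not called.

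The 8 genes with the largest falls included enzymes of lipid and small-molecule metabolism. ADH6, an alcohol dehydrogenase, was 49.0 and 80.9 CPM in the chosen cells and 260 and 275 CPM in the others (log2 fold change -2.07, SE 0.11, adjusted p = 1.11e-11). CYP4B1, a cytochrome P450, was 34.8 and 14.5 CPM against 143 and 57.9 CPM (log2 fold change -2.06). LPL, lipoprotein lipase, was 76.3 and 41.4 CPM against 286 and 140 CPM (log2 fold change -1.87, SE 0.09, adjusted p = 3.97e-12). In the normal rabbits these levels were higher still, though none was called between injured and normal cells: ADH6 was 1057 and 603 CPM, CYP4B1 382 and 291 CPM and LPL 1039 and 750 CPM in the other DCN/LUM cells of Normal_1 and Normal_2. ENPP2, autotaxin, which makes lysophosphatidic acid, fell by 1.72 and ISM1, a secreted protein, by 1.58. CPB1, a carboxypeptidase, had the lowest value of these 8 at -3.48, with 74.8 and 14.4 CPM in the others against 7.12 and 1.12 CPM. CTSE and the channel gene AQP3, at -1.80 and -1.55, completed these 8. Few cells held them: AQP3 was detected in 7.20% and 7.05% of the chosen cells and in 8.34% and 6.74% of the others. For CTSE these shares were 8.90% and 5.81% against 10.3% and 4.17%. In Injury_1, 1 of the other cells held 73 of their 456 AQP3 UMIs and 1 held 76 of their 656 CTSE UMIs.

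Among the largest rises, DCAF13, a factor of ribosome assembly, was 223 and 190 CPM against 77.6 and 55.3 CPM (log2 fold change 1.62, SE 0.09, adjusted p = 1.11e-11). PRSS35, a protease-like secreted protein, was 109 and 70.5 CPM against 15.7 and 22.5 CPM (log2 fold change 2.18, SE 0.17, adjusted p = 1.17e-08), and it was detected in 39.8% and 33.2% of the chosen cells against 9.01% and 13.3% of the others. CCDC15 was 36.9 and 85.0 CPM against 11.9 and 30.5 CPM (log2 fold change 1.51). The largest value of all, 3.52 for GLNB2, came from single cells: 1 chosen cell held 147 of its 150 UMIs in Injury_1 and 1 held 41 of 44 in Injury_2. CCDC3, at 12.6 and 29.1 CPM against 2.22 and 13.6 CPM, had a log2 fold change of 1.47 that became -0.64 without the COL11A1 cells.

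Of 14 cytokine and chemokine genes, 3 were called higher and 5 lower, against 1 and 1 with DESeq2 and at like depth. VCAM1, an adhesion molecule for leukocytes, fell by 0.69, from 663 and 335 CPM to 416 and 213 CPM. IL1B fell by 0.66 and CXCL10 by 0.92, calls that were lost in 7 and 8 of 15 alternatives. CXCL9 was called higher at 1.24, but 7 chosen cells of Injury_1 held all 142 of its UMIs there, 91 of them in 1 cell, and it was 0.373 against 0.771 CPM in Injury_2. Of 10 proliferation genes, 6 were called higher and 0 lower, with 6 and 1 at an unadjusted p under 0.05, and DESeq2 called 1 higher and 0 lower. TOP2A was 45.7 and 41.4 CPM against 26.5 and 33.8 CPM (log2 fold change 0.50), and it was -0.27 at like depth, where edgeR called 0 of the list and 1 was lower at an unadjusted p under 0.05. Of 18 endoplasmic reticulum and secretion genes, 1 was called higher, MANF, with a median of 0.13, a call lost in 10 of 15 alternatives, DESeq2 and like depth among them. Among 8 dissociation and stress genes edgeR and DESeq2 each called 0, with a median of -0.10 and 2 lower at an unadjusted p under 0.05 in edgeR. The heat shock gene HSPA8 was 7751 and 9345 CPM against 8043 and 8842 CPM, and IER3 7083 and 7090 CPM against 8243 and 6750 CPM.

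The level of several genes followed the number of the 6 genes in a cell. These values are a description, since depth also rose along the scale, from a median of 6987.5 UMIs in cells with none to 10454 in cells with 5 or 6 in Injury_1 and from 7476.5 to 11551.5 in Injury_2. In Injury_1, ASPN was 36.4, 64.9, 76.1, 78.1, 161 and 576 CPM in cells with 0, 1, 2, 3, 4 and 5 or more of the genes. In Injury_2 it was 55.8, 75.1, 162, 233, 432 and 1402 CPM in the same order. ACTA2 stayed between 165 and 324 CPM up to 3 genes in Injury_1 and then reached 435 and 2735 CPM. In Injury_2 it ran from 261 CPM with none to 456 CPM with 3, 849 CPM with 4 and 2555 CPM with 5 or more.

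VCAN rose up to 4 genes, from 246 to 622 CPM in Injury_1 and from 228 to 577 CPM in Injury_2, and was 455 and 466 CPM in cells with 5 or more. LPL fell along the scale, from 427 to 4.03 CPM in Injury_1 and from 223 to 11.4 CPM in Injury_2. APOD was 4249 CPM with none and 129 CPM with 5 or more in Injury_1, and 1859 and 259 CPM in Injury_2. The cells with 5 or 6 genes numbered 24 and 36, and most of them were among the COL11A1 cells described above. By the lowest slope over the 4 samples, PRSS35, ACTA2, Tpm2, COL8A1 and TPM1 rose most with the number of genes, from 0.57 for PRSS35 to 0.35 for TPM1 in log2(CPM + 10) per gene, followed by OMD, ADORA2B, COL4A1, FBXL7 and CCDC3. In Normal_1 these slopes rest on cells with 0 or 1 gene and in Normal_2 on cells with 0 to 2.

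**Figure D5:**
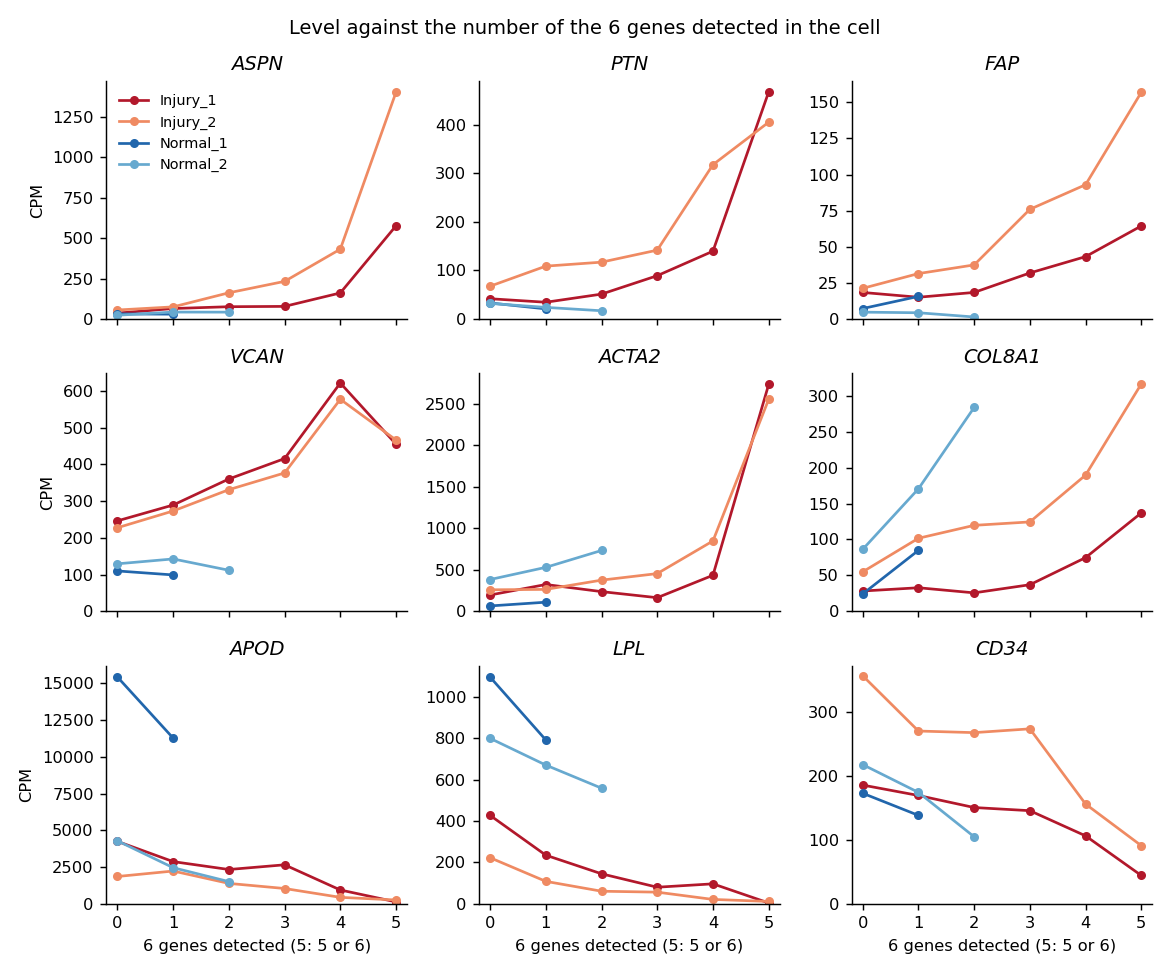
CPM of 9 genes in DCN/LUM cells with 0 to 5 or more of the 6 genes, 1 line per sample and at least 20 cells per point. ASPN, PTN, FAP and COL8A1 climb in both injured samples, ACTA2 climbs after 3 genes, and APOD, LPL and CD34 fall.

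The chosen cells could not be tested between conditions, since Normal_1 had none and Normal_2 had 8. Those 8 cells are too few to compare with the chosen cells of the injured rabbits, and only their values are given. COL11A1 was detected in 0 of the 8 and COCH in 2, whereas FNDC1 and SCUBE2 were each detected in 7 and ADAMTS19 in 5. Their median share of DCN and LUM UMIs was 1.499%, against 4.27% and 3.78% in the chosen cells of Injury_1 and Injury_2. All 8 held a UMI of at least 1 smooth muscle or pericyte gene (MYH11, LMOD1, DES, SYNPO2, RGS5, HIGD1B, ABCC9 or KCNJ8), as did 40.6% of the other DCN/LUM cells of Normal_2. FAP was 0 CPM and ACTA2 1936 CPM in them.

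The other DCN/LUM cells, by contrast, were present in all 4 rabbits, and the question was how far the genes of the chosen cells also differed there between injury and normal mucosa. Of 8460 genes tested, 2 were called higher (0.0236%) and 0 lower (0.0%) by edgeR in the injured rabbits, with 514 and 359 at an unadjusted p under 0.05, while DESeq2 called 137 higher and 58 lower. EREG was 210 and 128 CPM in the injured and 0.416 and 0.624 CPM in the normal rabbits (log2 fold change 8.27, adjusted p = 0.0206), and FAM13C was 28.4 and 26.1 CPM against 1.25 and 0.749 CPM (log2 fold change 4.96, adjusted p = 0.0419). FAM13C was not called between the chosen and the other cells (52.4 and 19.4 CPM against 28.4 and 26.1 CPM, adjusted p = 0.476).

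For some further genes higher in the chosen cells, the values in the other cells were as follows, with none called. FAP was 17.1 and 29.1 CPM in the injured and 8.74 and 4.49 CPM in the normal rabbits. PLOD2 was 123 and 128 CPM against 31.4 and 46.7 CPM, and VCAN 290 and 271 CPM against 109 and 133 CPM. ASPN was 56.9 and 89.7 CPM against 34.1 and 30.3 CPM. For ACTA2 the groups overlapped, with 257 and 292 CPM against 72.4 and 444 CPM, as they did for COL8A1, with 29.5 and 88.6 CPM against 34.3 and 120 CPM. TNFAIP6 was 1128 and 674 CPM against 108 and 195 CPM (log2 fold change 2.64, adjusted p = 0.142), and SFRP2, lower in the chosen cells, was 3584 and 2174 CPM against 756 and 813 CPM. COL12A1 and OMD, also higher in the chosen cells, were read in DCN/LUM cells with none of the rule's genes. There both lay higher in the normal rabbits. COL12A1 was 109 and 137 CPM in the injured and 140 and 399 CPM in the normal rabbits. OMD was 24.0 and 8.59 CPM against 31.9 and 50.5 CPM.

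Markers of other cell types were read in the same sums. The summed level of the 9 smooth muscle and pericyte markers was 644 and 1057 CPM in the chosen cells of Injury_1 and Injury_2 and 380 and 399 CPM in the others, of which ACTG2 made the larger part. KCNJ8 was at 0 in the chosen cells of both rabbits and HIGD1B at 0 in those of Injury_2. A smooth muscle or pericyte UMI was seen in 31.4% and 37.3% of the chosen cells and in 23.2% and 26.7% of the others. With all such cells left out, ACTG2, ACTA2 and Tpm2 were still called, with log2 fold changes of 1.64, 1.71 and 0.84, 4 contractile genes were called higher and the total fell to 154. The 11 urothelial markers summed to 75.4 and 32.4 CPM in the chosen cells and 140 and 71.9 CPM in the others, with KRT5, UPK1B and GRHL3 at 0 in the chosen cells of both rabbits.

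The 11 endothelial markers summed to 26.0 and 15.3 CPM against 31.8 and 23.8 CPM, with CDH5, KDR and TIE1 at 0 in the chosen cells of both. The 19 immune markers summed to 24.7 and 35.8 CPM against 47.1 and 35.7 CPM, and the 7 glial markers to 5.45 and 5.22 CPM against 5.87 and 6.06 CPM. Of these marker lists edgeR called 3 of 6 urothelial genes tested lower, 1 of 8 smooth muscle and pericyte genes (ACTG2) higher and 2 lower, and none of 5 endothelial, 7 immune and 2 glial genes. The 6 fibroblast markers outside the rule summed to 77099 and 104133 CPM against 76837 and 98511 CPM. Cells among the 5% with the highest doublet score made up 9.32% and 8.71% of the chosen cells and 2.82% and 5.39% of the others. Without them the share of chosen cells was 11.04% and 9.82% in Injury_1 and Injury_2, and 183 genes were called higher and 163 lower. At least 3 of the 6 genes were also found in 3, 2, 4 and 43 cells that failed the DCN/LUM limit in Injury_1, Injury_2, Normal_1 and Normal_2, and in 15, 7, 0 and 1 that held PTPRC or PECAM1.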

How the data were processed

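Single-cell suspensions of rabbit bladder mucosa were sequenced with a droplet-based 3' kit, and the authors made the deposited UMI counts per gene and barcode with Cell Ranger 6.0.1, with no normalization. Each group had 2 rabbits, so p-values rest on few samples. The genome build is not given in the sources used here. Of 18475 genes, 9771 carried a symbol. The limits of the study on UMIs, genes and mitochondrial share were applied here. Cells were chosen by the rule stated in the report, and UMI counts were summed per sample and kind of cell, for sums of at least 20 cells. The members and the gene lists were chosen with earlier results of these data known. Levels are CPM of the sums, where 1 cell with many UMIs can set a value. The summed counts went into edgeR 4.0.16 under R 4.3.3 (quasi-likelihood F test) after filterByExpr and TMM normalization, with the sample as a block for chosen against other cells, and genes with a Benjamini-Hochberg adjusted p under 0.05 were called. The 10 genes of the rule were left out of all counts of calls. DESeq2 1.42.0 was an alternative. Scrublet, run through scanpy 1.11.5, scored doublets, and none were removed except as an alternative. The scripts were tested on simulated data.

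The genes named were the genes of the rule, ASPN, a list of matrix and fibroblast genes, the 8 largest increases and decreases with a symbol and at least 20 CPM that moved the same way in both rabbits, up to 4 called genes of each list, and the 10 that rose most with the number of rule genes. Genes named outside this rule are marked, and 1 gene that the rule named is not reported here. Alternatives were other detection limits, mitochondrial limits, scalings and filters, DESeq2, removal of doublets, like depth, no block and leaving out each sample, and 3 were added after seeing the data: COL11A1 cells left out, cells with smooth muscle or pericyte UMIs left out, and others with none of the 6 genes.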

Additional observations from a re-analysis of the deposited data

How the results depend on the processing

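Chosen against other cells gave 571 calls, and 173 with DESeq2, 116 with at least 2 of the 6 genes (3 samples), 358 with a mitochondrial limit of 10%, 346 without the highest doublet scores, 147 at like depth and 154 without cells holding smooth muscle or pericyte UMIs. With the others limited to cells with none of the 6 genes there were 911. Without the sample block edgeR gave 0, with 474 at an unadjusted p under 0.05, since the difference between the rabbits then enters the spread. Without normalization factors 60.7% of the calls were higher, against 51.8%, and without a filter 40.3%. At least 4 genes gave 486 calls and the COL11A1 cells left out 381. Leaving out an injured rabbit leaves no residual degrees of freedom, so single genes were followed as values only.

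For the other DCN/LUM cells, injured against normal, the 2 calls became 195 with DESeq2, 1 without normalization factors, 496 without a filter, 1 with at least 2 of the 6 genes, 8 without the highest doublet scores and 17 to 102 with 1 sample left out. With the replicate block there were 103 calls. The replicate numbers do not pair rabbits, so this is a value only.

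The injured-to-normal difference in the share of chosen cells, 10.8 percentage points, was 27.3 with at least 2 genes, 3.77 with at least 4, 0.434 at 1000 UMIs and 2.56 at 3000 UMIs per cell, and 9.97 to 11.6 with 1 sample left out. For the 81 named genes that were called, 1050 alternative values had an adjusted p, and of these 742 were still called in the same direction, 299 lost the call and 9 turned. With the values that leave out a rabbit, which carry no p, 11 turned. These were MMP10 at -0.66 with at least 4 genes, and MMP10 at -0.18, COL12A1 at -0.092, CCDC3 at -0.64 and ACTA2 at -0.024 without the COL11A1 cells. At like depth TOP2A was -0.27, and with at least 2 genes SOX5 was 0.022 and HHIP 0.024. MYH11 was 0.034 with the mitochondrial limit of 10%, CXCL9 was -0.37 without Injury_1 and 1.34 without Injury_2, and EPYC 0.88 and -0.070. The cause was not tested. Chosen cells injured against normal, and the difference of the 2 comparisons, were not run, since Normal_1 had no chosen cell and Normal_2 8. With 2 rabbits a group the number of samples limits every value.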
